A study of Mus musculus with 15 samples.

Results

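Microglia collected 28 days after a single dose of ATV:4D9 were compared with microglia of control mice that had received ATV:RSV 1 day earlier. All cells of the 3 ATV:4D9 day 28 mice (21697 cells) and of the 3 ATV:RSV day 1 mice (20301 cells) were taken, which is 41998 of the 102043 cells of the series, and each cell was assigned to its mouse and group through the mouse name in the deposited cell table and the sample title. All 6 mice were male C57BL/6J hTfR KI animals, in which part of the human transferrin receptor replaces the mouse sequence. Their age was given as 3.5 months. Each received 10 mg/kg once, and 1 mouse of each group stood in each of the 3 processing batches. ATV:4D9 is the TREM2-activating antibody 4D9 on an antibody transport vehicle (ATV), an Fc domain engineered to bind the human transferrin receptor and to bind Fc receptors poorly, and ATV:RSV carries the same vehicle with a control antibody in place of 4D9. Mice given ATV:4D9 and sampled at day 1, 7 and 14, also 3 per group, entered the same statistical fit. There was no control group at day 28, so an effect of the antibody and any other difference between 1 and 28 days after a dose cannot be told apart. The deposited cell table gives 1 takedown date for each of its 3 batches. The question was which gene programmes lay at the control level at day 28, and how tightly that could be measured.

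TREM2 is a lipid-sensing receptor on the surface of microglia, the resident macrophages of the brain. It signals through the adaptor TYROBP (also called DAP12) and the kinase SYK, and it is needed for the disease-associated microglia (DAM) state, in which microglia lower homeostatic genes such as P2ry12 and raise genes of lipid handling, phagocytosis and lysosomes. Binding to the transferrin receptor, which carries iron-loaded transferrin into cells, is used to bring antibodies across the endothelium of brain vessels.

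The libraries were 3′ single-cell libraries of CD45 bead-enriched brain cells, read out as unique molecular identifiers (UMIs, each marking 1 captured RNA molecule). The 3 ATV:4D9 day 28 mice held 45287738 to 49182550 UMIs and 6795 to 7498 cells, and the ATV:RSV mice 38985589 to 46425480 UMIs and 6487 to 7020 cells. A day 28 cell held more UMIs at the median, 5798 ± 99.4 (mean and SD of 3 mice) against 5317 ± 396 in ATV:RSV (two-sided exact permutation test, p = 0.2, or 0.333 adjusted over 5 measures per cell or mouse, where 3 mice against 3 cannot give a p below 0.1). The microglial markers P2ry12, Tmem119, Cx3cr1, Csf1r, C1qa, Siglech, Fcrls and Tyrobp had a UMI in 98.2% to 100% of the cells of each of the 6 mice and the transcription factor gene Sall1 in 73.6% to 79.7%, against at most 5.15% for Mrc1 of border macrophages, 0.0147% for Cd3e of T cells and 0.0712% for Ly6c2 of monocytes, as the label microglia implies. Between 50 and 71 cell barcodes of each mouse occurred in another of the 6 mice. The library of ATV:RSV replicate 1 had the highest summed level of the 6 mice in the lists of interferon and cell division genes. Values without it are given beside those results and some others. UMIs were summed per mouse, so fewer cells with a transcript and less of it per cell cannot be told apart in these sums.

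Across the whole transcriptome the mean distance between ATV:4D9 day 28 and ATV:RSV mice did not exceed the mean distance within the groups, taken over both groups. The root mean square difference in log2 CPM (the UMIs of a gene scaled to a common, TMM-normalised library total) over the 14260 genes tested averaged 0.481 between a day 28 and an ATV:RSV mouse (0.412 to 0.548 over the 9 pairs), 0.499 within ATV:RSV and 0.474 within day 28. The mean between minus the mean within was -0.00556 (two-sided exact permutation test, p = 0.8, where 3 mice against 3 cannot give a p below 0.1). Measured against the same 3 ATV:RSV mice, the mean distance was 1.13 at day 1, 0.546 at day 7 and 0.497 at day 14. At day 14 the mean between minus the mean within was -0.00298 (same permutation test, p = 0.9), although limma-voom called 0.856% of genes there. The distance gives every gene the same weight, so it can miss a difference in a small share of genes.

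For each gene, a test of equivalence made of 2 one-sided tests then asked whether its level at day 28 was shown to lie within 1.5-fold of ATV:RSV in either direction. At an adjusted p under 0.05 (limma, Benjamini-Hochberg), 11077 of the 14260 genes (77.7%) were placed within 1.5-fold, 13019 (91.3%) within 2-fold and 8692 (61%) within a ratio of 5 to 4. Against the same control mice, 35.2% of genes were placed within 1.5-fold at day 1, 72.4% at day 7 and 77.3% at day 14. The share varied with the level of the gene. Of the 2938 genes under 1 CPM, 10.7% were placed within 1.5-fold, with a median standard error of 0.342 on the log2 scale. The share was 72.6% from 1 to 3 CPM, 95.1% from 3 to 10 CPM and 99.2% of the 1357 genes at 100 CPM or more, where the median standard error was 0.0469. A gene that did not pass this test may lie outside the bound or may have been measured too loosely to be placed.

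**Figure D1:**
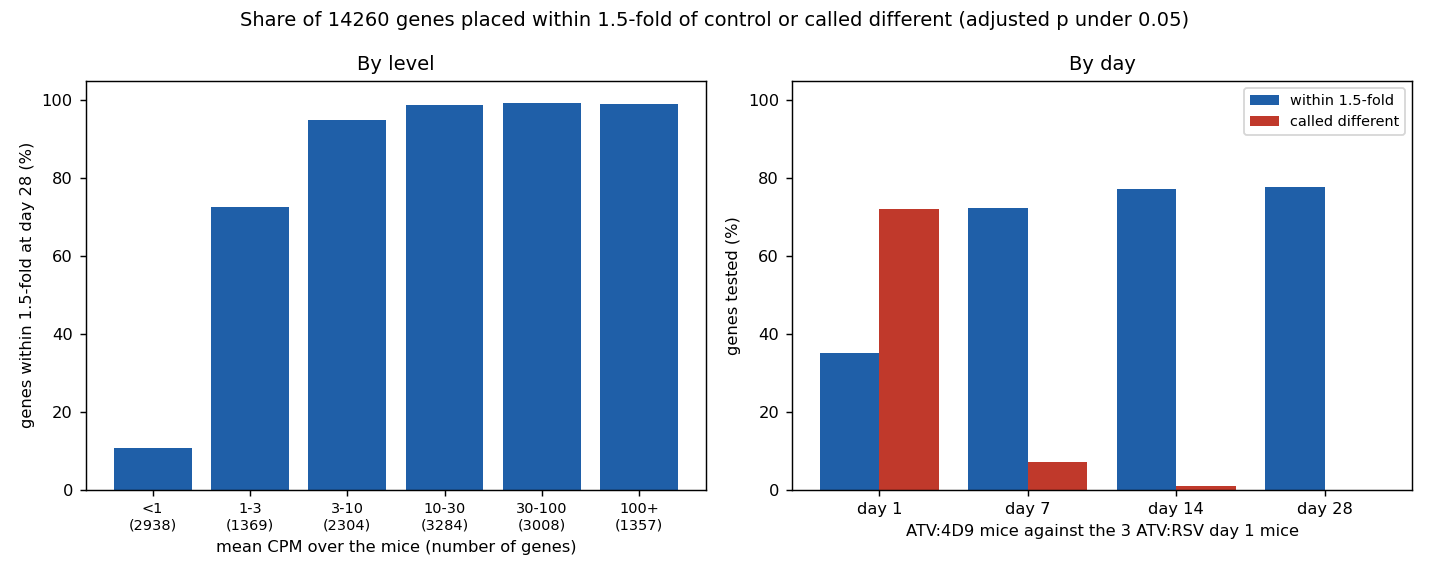
Left, the percent of genes placed within 1.5-fold of ATV:RSV at ATV:4D9 day 28, by the mean level of the gene over the 6 mice in CPM (number of genes in brackets); the bars go from 10.7% under 1 CPM to 99.2% at 100 CPM or more. Right, for each day of ATV:4D9 the percent of the 14260 genes placed within 1.5-fold of ATV:RSV and the percent called different, both at an adjusted p under 0.05; at day 28 these were 77.7% and 0.014%.

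In the direct comparison, Bbc3 and Haao were higher at day 28 than in ATV:RSV, and these were the 2 genes of 14260 called by limma-voom with the batch as a block (0.014%). For the earlier days the share of genes that differed from these control mice was 72.1% (day 1), 7.11% (day 7) and 0.856% (day 14). No gene was called lower. An unadjusted p under 0.05 was reached by 926 genes (6.49%), 496 of them higher and 430 lower.

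Bbc3 encodes PUMA, a BH3-only protein that promotes apoptosis. The gene lies on chromosome 7 (mm10, chr7:16308393-16318205, plus strand, protein coding). Its level was 22.7, 23.1 and 24.2 CPM in ATV:RSV replicates 1 to 3 and 30.3, 32.3 and 32.9 CPM in day 28 replicates 1 to 3. All 3 day 28 mice were above all 3 ATV:RSV mice, and the spread within each group was small beside the gap, with means of 31.8 ± 1.36 and 23.3 ± 0.817 CPM (SD, n = 3). On the log2 scale the fitted difference came to 0.45 (SE 0.0581, 95% interval 0.32 to 0.57, limma-voom adjusted p = 0.0353), with 0.42, 0.49 and 0.44 in the 3 batches taken alone. The difference was small, and Bbc3 was also placed within 1.5-fold of ATV:RSV (adjusted p = 0.0215). Against the same control mice, Bbc3 was lower at day 1 (log2 fold change -0.18, adjusted p = 0.0158) and higher at day 7 (0.55, adjusted p = 3.55e-05) and day 14 (0.33, adjusted p = 0.0140) in limma-voom. Without the batch as a block the adjusted p of Bbc3 at day 28 was 0.261, and without any one of the 6 mice it was 0.0821 to 0.241, while the log2 fold change stayed between 0.43 and 0.48 over all 18 alternatives.

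Haao encodes 3-hydroxyanthranilate dioxygenase, an enzyme of the kynurenine pathway that leads from tryptophan to quinolinic acid and NAD. It lies on chromosome 17 (mm10, chr17:83831156-83847963, minus strand, protein coding). Its level was 4.50, 5.55 and 6.01 CPM in the ATV:RSV mice and 8.17, 7.28 and 9.03 CPM in the day 28 mice. The groups did not overlap, with means of 5.35 ± 0.776 and 8.16 ± 0.875 CPM (SD, n = 3), but the size of the gap differed between batches, with log2 differences of 0.86, 0.39 and 0.59. The fitted log2 difference was 0.62 (SE 0.0881, 95% interval 0.43 to 0.81, limma-voom adjusted p = 0.0454). Haao was called higher on every earlier day against these controls, with log2 fold changes of 1.83 at day 1, 0.91 at day 7 and 0.76 at day 14. The direct tests of day 28 against day 7 (-0.29, limma-voom adjusted p = 0.0727) and against day 14 (-0.14, adjusted p = 0.999) did not pass the threshold. Without the batch as a block the limma-voom adjusted p of Haao was 0.261, and without any one of the 6 mice it was 0.0739 to 0.244. It was 0.134 in a fit of the 6 mice alone and 0.0503 with DESeq2 size factors in voom, so Haao was not called there either, and it was called in 8 of 18 alternatives (Bbc3 in 10).

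Rgs7bp came close to the threshold on the lower side, and Sfmbt2 and Lyzl4 lay on the same side farther from it. Rgs7bp, which encodes a membrane anchor for regulators of G protein signalling, had 21.1, 21.3 and 19.6 CPM in ATV:RSV and 12.5, 15.7 and 15.3 CPM at day 28, a log2 difference of -0.52 (SE 0.0793, limma-voom adjusted p = 0.0574). It was called lower in 7 of 18 alternatives, among them DESeq2, thinned counts and a filter of 50 UMIs in every mouse, and its adjusted p ranged up to 0.312 over the others. All 3 day 28 mice lay below all 3 ATV:RSV mice. It had been called lower at day 1, 7 and 14 against the same controls, at -0.58, -0.75 and -0.45. Sfmbt2, a Polycomb group gene, had 2.70, 2.39 and 2.74 CPM in ATV:RSV and 1.67, 1.80 and 1.73 CPM at day 28 (-0.59, SE 0.137, limma-voom adjusted p = 0.411), also without overlap. The lysozyme-like gene Lyzl4 had 6.5, 6.80 and 7.71 CPM in ATV:RSV and 4.90, 5.48 and 5.18 CPM at day 28 (-0.43, limma-voom adjusted p = 0.492), where it had been -1.49 at day 7.

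Among genes with an unadjusted p under 0.05, no overlap and at least 10 UMIs in each mouse, the 5 with the highest log2 fold change were Lox, Pdcd1, Il12rb2, Rep15 and Meis2, all at low level. Pdcd1, which encodes the checkpoint receptor PD-1, had 1.12, 0.965 and 1.10 CPM in ATV:RSV and 1.63, 1.85 and 2.45 CPM at day 28 (0.89, SE 0.267, limma-voom adjusted p = 0.577), after 3.42 at day 1. Il12rb2, a subunit of the interleukin-12 receptor, had 0.695, 0.675 and 0.740 CPM and 1.32, 1.05 and 1.45 CPM (0.84, SE 0.239, limma-voom adjusted p = 0.532). The 5 lowest were Top2a, Nusap1, Prc1 and Ccnb2 of cell division, given with their list further on, and Rapgef4, an exchange factor for RAP1 that binds cyclic AMP, with 1.00, 0.675 and 0.740 CPM and 0.583, 0.294 and 0.346 CPM (-0.99, SE 0.388). Among genes at 100 CPM or more the 3 highest were Il1b, Apoe and Cd83. Cd83, an activation marker of antigen-presenting cells, had 568, 463 and 441 CPM in ATV:RSV and 767, 626 and 545 CPM at day 28 (0.39, SE 0.163, limma-voom adjusted p = 0.729), and the groups overlapped. Its log2 value was 0.18 without day 28 replicate 1, and limma-voom called it when the 6 mice were fitted alone (adjusted p = 0.0364). The 3 lowest were Adrb1, Ccl12 and Tsc22d3. Tsc22d3, a glucocorticoid-induced gene, had 300.2, 253 and 358 CPM in ATV:RSV and 179, 343 and 211 CPM at day 28 (-0.36, SE 0.367), with day 28 replicate 2 among the ATV:RSV mice. Its log2 value ranged from -0.70 without that mouse to -0.00 without day 28 replicate 1.

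The number of calls depended on the tool, while none of the tools called more than 17 genes. edgeR called 3 genes (0.021%), Bbc3, Haao and Cdkn2c, the last of which encodes the CDK4 and CDK6 inhibitor p18. Cdkn2c had 7.28, 6.97 and 8.42 CPM in ATV:RSV and 9.92, 11.3 and 12.7 CPM at day 28, a log2 difference of 0.58 (limma-voom adjusted p = 0.0574). DESeq2 called 17 genes (0.119%), 14 higher and 3 lower. Beside Bbc3, Haao and Cdkn2c, those higher were Clec7a, H2-Oa, Sowahc, Glipr1, Igfbp4, Cd72, Ildr2, Lag3, Scpep1, Adap1 and Tent5c, and those lower were Rgs7bp, Dab2 and Prkce. Of the programme lists described here, DAM (Clec7a) and MHC class II (H2-Oa) held a gene called by DESeq2, and no list held a gene called by edgeR. When limma-voom was fitted to the 6 mice alone it called 6 genes, Bbc3, Clec7a, Cd83 and Dusp2 higher and Top2a and Pbk lower, which brings in the DAM, immediate early and G2 and mitosis lists. Genes named for a call by DESeq2 or in that fit were chosen after their values were seen. In all 17 genes of DESeq2 the 2 groups did not overlap, as in 1274 of all genes (8.93%). Lag3, a checkpoint receptor that binds MHC class II, had 297, 235 and 274 CPM in ATV:RSV and 344, 325 and 347 CPM at day 28 (0.34, limma-voom adjusted p = 0.492). Igfbp4, an insulin-like growth factor binding protein gene, had 18.9, 16.5 and 18.0 CPM and 25.8, 22.2 and 22.7 CPM (0.40, limma-voom adjusted p = 0.303), after 1.19 at day 7 and 0.66 at day 14. Dab2, an endocytic adaptor, had 11.4, 11.6 and 11 CPM in ATV:RSV and 9.16, 7.45 and 8.38 CPM at day 28 (-0.44, limma-voom adjusted p = 0.0574).

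**Figure D2:**
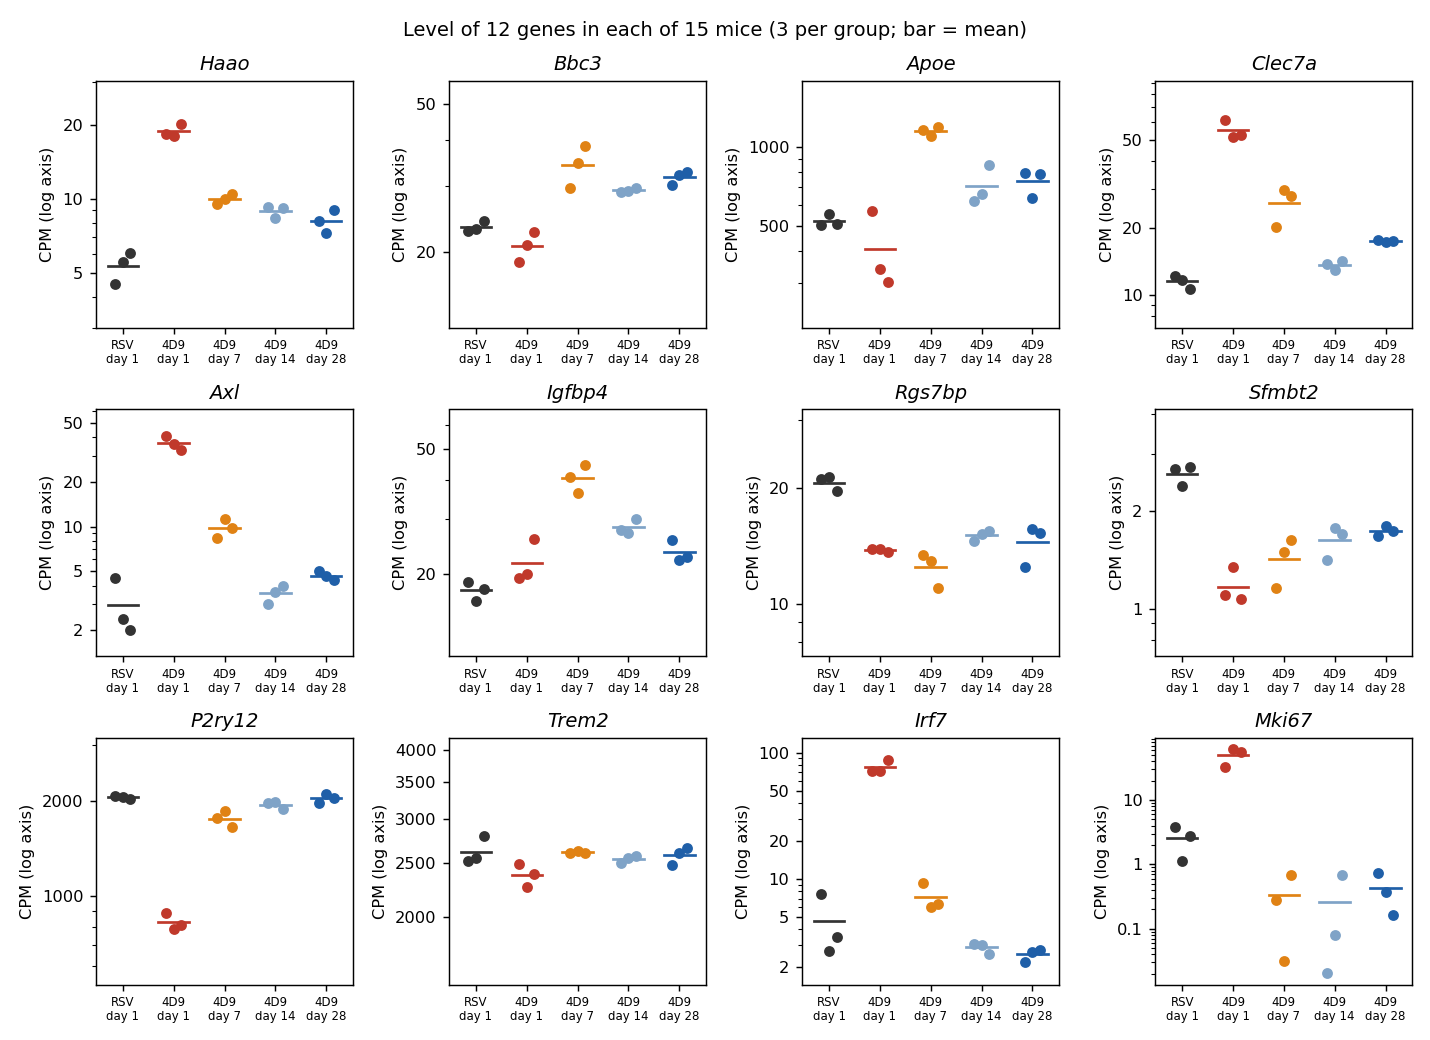
Level of 12 genes in CPM (log axis) in each of the 15 mice, 3 per group, with a bar at the group mean. Haao and Bbc3 are the 2 genes called at day 28, P2ry12 and Trem2 are at the control level there (2052 and 2039 CPM for P2ry12 in ATV:RSV and day 28), and the day 28 mice of Mki67 are below the ATV:RSV mice at 0.739, 0.378 and 0.163 against 3.84, 1.13 and 2.77 CPM.

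The receptor that the antibody binds and its signalling partners were at the control level and were measured tightly. Trem2 had 2519, 2549.6 and 2801 CPM in the ATV:RSV mice and 2481, 2605 and 2662 CPM in the day 28 mice, a log2 fold change of -0.02 (SE 0.0431, 95% interval -0.11 to 0.07). Tyrobp lay at 0.03 (SE 0.0416) and Syk at -0.10 (SE 0.0542). The groups overlapped for all 3 genes. Syk had been -0.95 at day 1 against the same controls. Of 21 tested genes of TREM2 signalling 0 were called at day 28, all 21 were placed within 1.5-fold (77.7% of all genes were), and their median was -0.02. The highest member was Lat2, a membrane adaptor, with 84.4, 96.0 and 111 CPM in ATV:RSV and 109.9, 111 and 109 CPM at day 28 (0.19, limma-voom adjusted p = 0.585). Tfrc, the mouse transferrin receptor gene, had 4.44, 4.10 and 4.75 CPM in ATV:RSV and 5.08, 4.57 and 4.57 CPM at day 28 (0.10, SE 0.103), after 2.52 at day 1.

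Homeostatic genes, which mark resting microglia, were back in the same narrow range. All 22 members of the list were placed within 1.5-fold, 0 were called (edgeR and DESeq2 called 0 too, and 2 had an unadjusted p under 0.05), and the median log2 fold change was -0.01, where it was -0.63, -0.11 and -0.05 at day 1, 7 and 14 against the same control mice. P2ry12, a purinergic receptor that steers microglial processes, had 2073, 2050.0 and 2032 CPM in ATV:RSV and 1971, 2106 and 2040.3 CPM at day 28. Its log2 fold change was -0.01 (SE 0.0452, 95% interval -0.11 to 0.09), after -1.31 at day 1. Tmem119 lay at -0.01 (SE 0.0598), the fractalkine receptor Cx3cr1 at 0.00 (SE 0.0420), the CSF1 receptor Csf1r at 0.01 (SE 0.0290) and the microglial transcription factor Sall1 at -0.01 (SE 0.0444). For each of these genes the groups overlapped. The lowest member was Crybb1, a lens crystallin gene also expressed in microglia. It had 447, 458 and 503 CPM in ATV:RSV and 389.6, 416 and 429 CPM at day 28 without overlap (-0.19, SE 0.0487, limma-voom adjusted p = 0.491), yet stayed inside the 1.5-fold bound.

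Of 21 microglia transcription factors 0 were called by any of the 3 tools, 4 had an unadjusted p under 0.05 (6.49% of all genes did), 5 did not overlap between the groups (8.93%) and 19 were placed within 1.5-fold, with a median of -0.03. The highest was Cebpa, a myeloid lineage factor, at 409, 317 and 403 CPM in ATV:RSV and 452, 499 and 462 CPM at day 28 (0.33, SE 0.126, limma-voom adjusted p = 0.689), or 0.20 without ATV:RSV replicate 2. The day 28 mice lay above the ATV:RSV mice, whereas Cebpa had been -1.43 at day 1.

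By their median the DAM genes lay slightly above the control level, beside an SD between mice of 0.0550. Their summed level overlapped between the groups, at 23887, 23923 and 25799 CPM in ATV:RSV and 24791, 25012.5 and 26601 CPM at day 28. Of 28 tested members 0 were called by limma-voom or edgeR over all mice. Clec7a was called by DESeq2, and by limma-voom in the fit of the 6 mice alone (adjusted p = 0.0340) and without the 5% of cells with most UMIs (adjusted p = 0.0471). An unadjusted p under 0.05 was reached by 10 members (6.49% of all genes did). The median log2 fold change was 0.08, with 0.05, 0.12 and 0.08 in the 3 batches, and 20 of 28 members lay above 0 (50.7% of all genes did). It was 0.84, 0.37 and 0.06 at day 1, 7 and 14. In 5 members the groups did not overlap (8.93% of all genes), and 21 were placed within 1.5-fold.

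Single DAM genes took different courses. Clec7a, the gene of the glucan receptor Dectin-1, had 12.2, 11.7 and 10.7 CPM in the ATV:RSV mice and 17.7, 17.3 and 17.5 CPM in the day 28 mice. All day 28 values were higher and close together, and the fitted log2 difference was 0.60 (SE 0.129, 95% interval 0.33 to 0.88, limma-voom adjusted p = 0.292), after 2.25, 1.15 and 0.24 at day 1, 7 and 14. The integrin gene Itgax had 3.25, 3.98 and 3.13 CPM in ATV:RSV and 4.4, 4.62 and 4.10 CPM at day 28 (0.35, SE 0.112, limma-voom adjusted p = 0.602), again without overlap. Axl, a receptor for apoptotic cells, had 4.50, 2.39 and 2.00 CPM in ATV:RSV and 4.98, 4.62 and 4.34 CPM at day 28 (0.68, SE 0.214, limma-voom adjusted p = 0.578). Here ATV:RSV replicate 1 lay among the day 28 mice, and without it the value was 1.05. Cst7, an inhibitor of cathepsins, was placed within 1.5-fold at 12.8, 12.7 and 12.3 CPM in ATV:RSV and 10.9, 13.3 and 11.3 CPM at day 28 (-0.10, SE 0.0880), although it had been 4.48 at day 1 and 1.07 at day 7. Lpl, lipoprotein lipase, varied within both groups, with 7.54, 14.1 and 12.1 CPM and 9.59, 15.2 and 16.2 CPM (0.31, SE 0.262). It was not placed within 1.5-fold, and it was 0.00 without ATV:RSV replicate 1. Spp1, osteopontin, was not measured closely, since ATV:RSV replicate 2 had 18.8 CPM and the other 5 mice 0.675 to 2.82 CPM.

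Apoe, the lipid carrier apolipoprotein E, was among the higher abundant genes. Its level was 503, 553 and 509 CPM in ATV:RSV and 794, 639 and 786 CPM at day 28. The groups did not overlap, but day 28 replicate 2 lay much nearer to ATV:RSV than the other 2 day 28 mice, and the log2 fold change of 0.50 (SE 0.169, 95% interval 0.14 to 0.86) did not pass the threshold (limma-voom adjusted p = 0.661). Against these controls Apoe was -0.42 at day 1, 1.15 at day 7 and 0.44 at day 14. Day 28 against day 7 gave -0.65 (limma-voom adjusted p = 0.0503). Of 26 tested genes of lipid efflux and storage 0 were called and 18 were placed within 1.5-fold. Their summed level, to which Apoe contributed most of the gap, was 2321, 2386 and 2329 CPM in ATV:RSV and 2659, 2469 and 2711 CPM at day 28. These did not overlap, as the sum over all genes tested did not, while their median was 0.01.

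The genes that had moved most after the dose were taken from contrasts between the other ATV:4D9 groups. Genes called and at least 2-fold higher (1766) or lower (1028) at day 1 than at day 14 of ATV:4D9 formed the day 1 response (19.6% of all genes), and genes called at day 7 against day 14 (1.35% of all genes) formed the day 7 response (176 higher, 16 lower). Neither contrast involved the day 28 or the ATV:RSV group, although those mice shared the filter, the batch terms and the estimate of spread of the same fit.

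Day 1 response genes had medians at the control level at day 28, with some members away from it. Those higher at day 1 had a median of 1.60 against ATV:RSV at day 1 and of -0.00 at day 28, and those lower had -1.29 and -0.00. Of the 1766, 1 was called at day 28 by limma-voom (Haao) and 4 by DESeq2, which called 0.119% of all genes. Limma-voom called 4 when fitted to the 6 mice alone (Pbk, Top2a, Clec7a and Dusp2). An unadjusted p under 0.05 was reached by 179 (6.49% of all genes did), and 212 did not overlap between the groups (8.93% of all genes did). Of the same 1766 genes, 875 lay above 0 and 1019 (57.7%) were placed within 1.5-fold. Of the 1028, limma-voom and edgeR called 0 and DESeq2 3, 82 had an unadjusted p under 0.05 and 637 (62.0%) were placed within 1.5-fold. Both shares were under the 77.7% of all genes, and the median standard errors, 0.158 and 0.159, were above the 0.0821 of all genes. The filter ran over all 5 groups, so a gene could be tested for its level at day 1 alone. Among the 1766, Gm15856 had at most 3 and Mxd3 at most 24 UMIs in any of the 6 mice. For such genes the comparison at day 28 could not decide whether they were back at the control level. The 3 genes with the highest fold between day 1 and day 14, among genes that reached 10 UMIs in all 6 mice, were E2f1, Uhrf1 and Top2a, all of the cell cycle. Uhrf1, which maintains DNA methylation during replication, went from 7.03 at day 1 to -0.36 (SE 0.297) at day 28, with 0.613, 0.434 and 0.239 CPM in ATV:RSV and 0.311, 0.357 and 0.285 CPM at day 28 and the groups interleaved, and it was 0.04 without ATV:RSV replicate 1. The 3 with the lowest fold were Adra2a, which encodes an adrenergic receptor, Kcnj9, which encodes a potassium channel, and Skint3. Kcnj9 went from -3.34 at day 1 to 0.29 (SE 0.118) at day 28, with 4.35, 4.17 and 3.58 CPM in ATV:RSV and 5.93, 4.47 and 4.28 CPM at day 28. Adra2a and Skint3 lay at 0.20 (SE 0.440) and 0.24 (SE 0.237), and the groups overlapped in all 3 genes. With 1 mouse left out Adra2a went from -0.40 (day 28 replicate 1) to 0.70 (day 28 replicate 2), and Skint3 from 0.04 (day 28 replicate 1) to 0.42 (ATV:RSV replicate 2).

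Most day 7 response genes lay on the side of the control level to which they had moved. Of the 176 that were higher at day 7 than at day 14, 142 (80.7%) lay above 0 at day 28 against ATV:RSV, where 50.7% of all genes did, and 90 (51.1%) were higher than ATV:RSV in each of the 3 batches, where 16.1% of all genes were. Their sum was 111552, 112873 and 110895 CPM in ATV:RSV and 119738, 116156 and 115022 CPM at day 28, so that every day 28 mouse lay above every ATV:RSV mouse. The sum over all 14260 genes tested did not overlap either, at 948912, 940257 and 945402 CPM and 956195, 949822 and 967520 CPM. The distance was small. The median log2 fold change was 0.07, compared with 0.53 at day 7 and 0.22 at day 14. Of the 176, 140 were placed within 1.5-fold (77.7% of all genes were). An unadjusted p under 0.05 was reached by 59 (6.49% of all genes did). Limma-voom and edgeR called 0, and limma-voom on the 6 mice alone called 1 (Clec7a). DESeq2 called 6, where it called 0.119% of all genes. The 53 ribosomal protein genes in this set all lay above 0 with a median of 0.07, and the 68 genes that belong to none of the lists had 59 above 0 and a median of 0.12. The 19 interferon response genes in it had 3 above 0 and a median of -0.21, and the median of the whole interferon list turned from -0.17 to 0.06 without ATV:RSV replicate 1. The 3 genes with the highest fold between day 7 and day 14, under the same limit of 10 UMIs, were Ccl5, Ifi27l2a and C4b, of which Ccl5, a T cell attracting chemokine, had 39.7, 3.76 and 1.93 CPM in ATV:RSV and 3.54, 21.2 and 4.83 CPM at day 28. These values differed as much within the groups as between them (-0.25, SE 0.748), and the log2 value turned to 1.61 without ATV:RSV replicate 1. Of the 16 genes lower at day 7, 2 lay above 0 and 15 were placed within 1.5-fold, with a median of -0.06. Gadd45g, a stress-inducible growth arrest gene, had 44.2, 46.0 and 43.1 CPM in ATV:RSV and 41.4, 38.2 and 48.0 CPM at day 28 (-0.07, SE 0.114), after -1.0 at day 7.

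Ribosomal protein genes, which encode the structural proteins of the cytosolic ribosome, made up the programme list with the most uniform direction. All 79 tested members lay above 0 at day 28, from 0.00 for Rpl8 to 0.15 for Rpl41, with a median of 0.08 that ranged from 0.06 to 0.09 over the alternative scalings, filters, cell sets and tools and without any one mouse. Rpl8 kept its sign in 10 of 18 alternatives. In the 3 batches the median difference was 0.11, 0.05 and 0.06, and 52 of 79 genes (65.8%) were higher in all 3. Limma-voom, edgeR and DESeq2 called 0 of them, 22 had an unadjusted p under 0.05 (6.49% of all genes did), 20 did not overlap between the groups (8.93% of all genes), and all 79 were placed within 1.5-fold. The median against the same control mice was 0.56, 0.50 and 0.28 at day 1, 7 and 14, when 74, 79 and 73 members were called (72.1%, 7.11% and 0.856% of all genes). The summed level was 127303, 123117 and 120147 CPM in ATV:RSV replicates 1 to 3 and 135759, 129686 and 126186 CPM in day 28 replicates 1 to 3. Each day 28 mouse was above the ATV:RSV mouse of its own batch, while the groups as a whole overlapped. Rps24, a protein of the small subunit, had 2979.5, 2965 and 2865 CPM in ATV:RSV and 3216, 3073 and 3001 CPM at day 28 (0.08, SE 0.0305, limma-voom adjusted p = 0.712). Rpl32, of the large subunit, had 1776, 1734 and 1704 CPM and 1918, 1829 and 1782 CPM (0.08, SE 0.0349, limma-voom adjusted p = 0.729). Members of the list share depth and library, so they are not independent of each other, and near-identical pseudogene copies make the level of a single ribosomal protein gene uncertain.

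**Figure D3:**
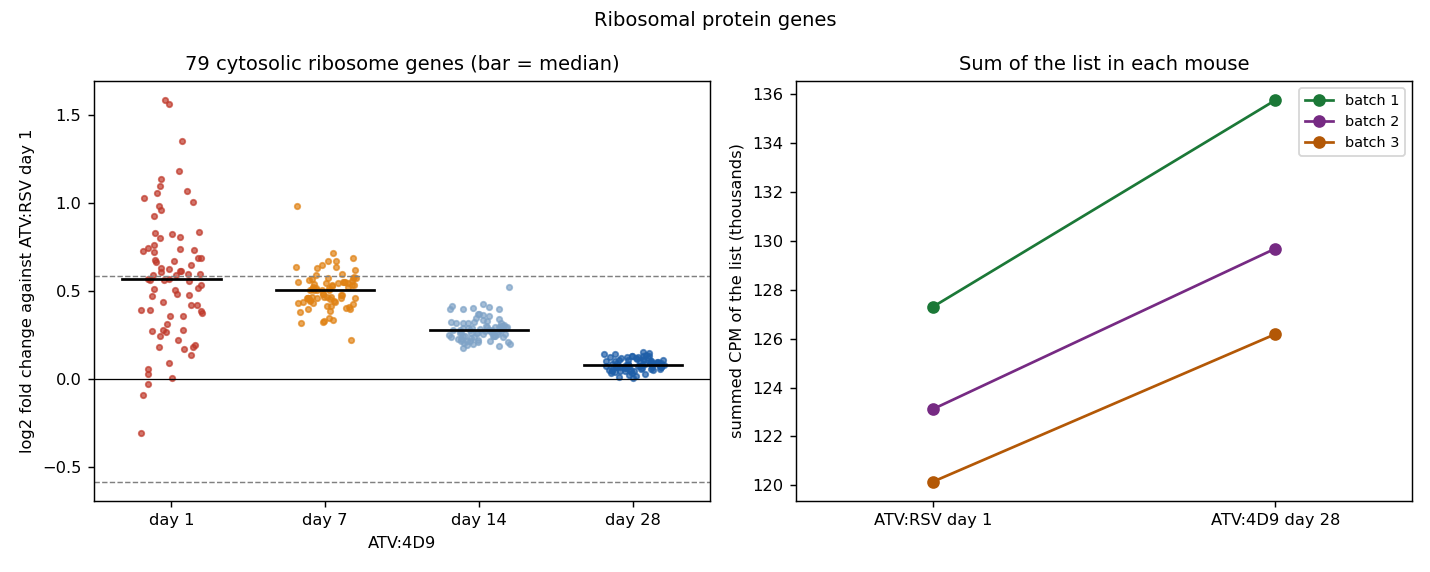
Left, the log2 fold change of each of the 79 ribosomal protein genes against ATV:RSV at day 1, 7, 14 and 28 of ATV:4D9 (points; bar at the median, dashed lines at 1.5-fold); the medians are 0.56, 0.50 and 0.28 and, at day 28, 0.08, where no point lies below 0. Right, the summed CPM of the list in each mouse, with lines joining the 2 mice of a batch; all 3 lines go up toward day 28.

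Other parts of the translation machinery had medians closer to 0. Of 33 ribosome biogenesis genes 27 were above 0 with a median of 0.04, and of 24 translation factors 19 were above 0 with a median of 0.05. These medians had stood at 1.14 and 0.83 at day 1. The ribosome biogenesis genes summed to 1462, 1511 and 1486 CPM in ATV:RSV and 1520, 1541 and 1539 CPM at day 28. For the translation factors the sums were 8323, 8512.5 and 8480 CPM and 8745, 8663 and 8809 CPM. Neither sum overlapped between the groups, as for the sum over all genes tested. In 7 and 5 members of these 2 lists the groups did not overlap (8.93% of all genes). The median difference was above 0 in each of the 3 batches for both. The proteasome lay on the other side, with 4 of 31 genes above 0, a median of -0.04 and all 31 within 1.5-fold, after 1.03 at day 1. None of these genes was called at day 28 by limma-voom, and 3, 1 and 1 members of the 3 lists had an unadjusted p under 0.05.

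Interferon response genes, which type I interferon induces in most cells, had been called in 44 of 44 members at day 1 (72.1% of all genes were) with a median of 3.11. At day 28 limma-voom called 0 of 44, 8 had an unadjusted p under 0.05, 20 were placed within 1.5-fold and the median was -0.17. That value rested on ATV:RSV replicate 1. The summed level was 1016, 733 and 793 CPM in the ATV:RSV mice and 754, 782 and 808 CPM in the day 28 mice, so replicate 1 of ATV:RSV was the highest of the 6 and the others lay together. Without it the median was 0.06, and the batch values were -0.66, 0.24 and 0.00. Irf7, the transcription factor that amplifies the interferon response, had 7.69, 2.68 and 3.51 CPM in ATV:RSV and 2.2, 2.64 and 2.77 CPM at day 28 (-0.84, SE 0.297, limma-voom adjusted p = 0.661), and -0.29 without ATV:RSV replicate 1. Isg15, a ubiquitin-like interferon product, had 27.0, 12.5 and 14.7 CPM and 12.5, 14.7 and 14.9 CPM (-0.33, SE 0.214, and 0.08 without that mouse). Ifit3 had 20.4, 5.91 and 8.90 CPM and 7.12, 8.71 and 8.62 CPM (-0.46, SE 0.275, and 0.13 without it). In each of these genes the high value was that of the same ATV:RSV mouse.

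MHC class I genes, which present peptides from inside the cell, had 18 of 24 members above 0 and a median of 0.04, with 0 called, 1 at an unadjusted p under 0.05 and 21 placed within 1.5-fold. Their median was 0.74, 0.18 and 0.06 at day 1, 7 and 14. H2-D1 had 626, 409 and 483 CPM in ATV:RSV and 548, 579 and 535 CPM at day 28 (0.15, SE 0.112), with the highest value in ATV:RSV replicate 1 and 0.32 without it. H2-Q7, whose reads may be split with close paralogues, had 25.2, 6.80 and 10.7 CPM and 14.4, 17 and 12.5 CPM (0.14, SE 0.332), and 0.75 without ATV:RSV replicate 1.

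Of 10 MHC class II genes limma-voom and edgeR called 0 and DESeq2 called 1 (H2-Oa), 1 had an unadjusted p under 0.05, 8 were placed within 1.5-fold and the median was -0.01. Cd74, the invariant chain that guides class II molecules to endosomes, had 40.2, 29 and 38.4 CPM in ATV:RSV and 37.1, 34.9 and 34.3 CPM at day 28 (-0.01, SE 0.140), after 2.69 at day 1. H2-Oa, a subunit of the class II modulator H2-O, differed from the rest of the list, with 43.8, 41.9 and 43.7 CPM in ATV:RSV and 52.3, 55.8 and 52.0 CPM at day 28. The groups did not overlap, with a fitted log2 difference of 0.31 (SE 0.0534, limma-voom adjusted p = 0.119). It was placed within 1.5-fold, and it had been -0.65, 0.71 and 0.40 at day 1, 7 and 14.

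Among the programme lists, cell division genes had the lowest median and were measured least tightly, while their summed level, 362, 305 and 307 CPM in ATV:RSV and 294, 333 and 288 CPM at day 28, overlapped between the groups. Of 40 G2 and mitosis genes limma-voom, edgeR and DESeq2 called 0 over all mice, limma-voom called Top2a in the fit of the 6 mice alone (adjusted p = 0.0326), 21 had an unadjusted p under 0.05 (6.49% of all genes did), 15 did not overlap between the groups (8.93% of all genes), 5 were placed within 1.5-fold and 37 lay below 0. The median was -0.77, with -1.26, -0.25 and -1.07 in the 3 batches and 3.33, -0.90 and -1.0 at day 1, 7 and 14 against the same ATV:RSV mice. It was -0.28 without ATV:RSV replicate 1 and -0.18 among genes with at least 50 UMIs in every mouse. Of the 40, 39 belonged to the genes that were higher at day 1 than at day 14 of ATV:4D9. Because the filter ran over all 5 groups, members could be tested for their day 1 level alone and hold few UMIs in the 6 mice. Mki67, a marker of dividing cells, had 3.84, 1.13 and 2.77 CPM in ATV:RSV (188, 47 and 116 UMIs) and 0.739, 0.378 and 0.163 CPM at day 28 (38, 18 and 8 UMIs). The groups did not overlap, the ATV:RSV mice differed by more than 3-fold among themselves, and the fitted log2 difference was -2.99 (SE 0.770, 95% interval -4.64 to -1.33, limma-voom adjusted p = 0.491). It ranged from -3.66 to -1.96 when each mouse of either group was left out in turn. Top2a, the topoisomerase of mitotic chromosomes, had 4.89, 1.71 and 2.46 CPM and 1.32, 0.483 and 0.326 CPM (-2.28, SE 0.622, limma-voom adjusted p = 0.499), or -1.67 without ATV:RSV replicate 1. Nusap1, Prc1 and Ccnb2, which act in the spindle and at mitotic entry, lay at -1.96, -1.55 and -1.5, and at -1.28, -0.94 and -0.88 without ATV:RSV replicate 1. The 5 members placed within 1.5-fold were Ncapd2, Smc4, Cdk1, Cks2 and Hmgb2.

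The S phase list had moved most at day 1, with a median of 4.49 and 40 of 40 called (72.1% of all genes). At day 28 0 of 40 were called, 2 had an unadjusted p under 0.05, 24 were placed within 1.5-fold and the median was -0.16, or -0.04 without ATV:RSV replicate 1. Mcm5, a subunit of the replicative helicase, had 3.03, 2.56 and 2.15 CPM in ATV:RSV and 2.33, 2.43 and 2.00 CPM at day 28 (-0.20, SE 0.148, or -0.02 without that mouse), after 5.37 at day 1, and was placed within 1.5-fold.

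Counts per cell showed how these sums were spread. With all cells reduced at random to 3385 UMIs, and shallower cells left out, 39.5% ± 1.06 (SD, n = 3) of day 28 cells and 39.9% ± 1.97 of ATV:RSV cells held at least 3 UMIs of the interferon list (exact permutation test, p = 0.8). For the S phase list the shares were 10.8% ± 0.177 and 10.8% ± 0.678 (exact p = 1), and for the G2 and mitosis list 11.1% ± 1.69 and 9.94% ± 1.16 (exact p = 0.4). All adjusted p-values were 1. Without thinning, day 28 cells, which held more UMIs, were 3.81, 3.42 and 3.90 percentage points higher (exact p = 0.4, 0.2 and 0.2, adjusted 0.7). With 1 mouse left out, the thinned difference (day 28 minus ATV:RSV) ranged from -1.23 to 0.679 percentage points for interferon. That difference ranged from -0.404 to 0.218 for S phase and from 0.192 to 1.79 for G2 and mitosis. A share at this cut does not count dividing cells. The median cell of each of the 6 mice held 1 UMI of the G2 and mitosis list. ATV:RSV replicate 1, the mouse with most Mki67, had a share of 9.73% for this list. ATV:RSV replicate 2, the control mouse with least Mki67, had 11.2%. The mice differed in how much of these sums a few cells held. The 1% of cells with most UMIs of the G2 and mitosis list held 20%, 7.56% and 13.3% of its UMIs in the ATV:RSV mice and 8.59%, 8.47% and 6.57% in the day 28 mice. For the interferon list the values were 17.8%, 11.7% and 11.8%, and 12.1%, 12.9% and 12.2%. ATV:RSV replicate 1 was the highest in both lists. For the G2 and mitosis list ATV:RSV replicate 3 also lay above all 3 day 28 mice.

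**Figure D4:**
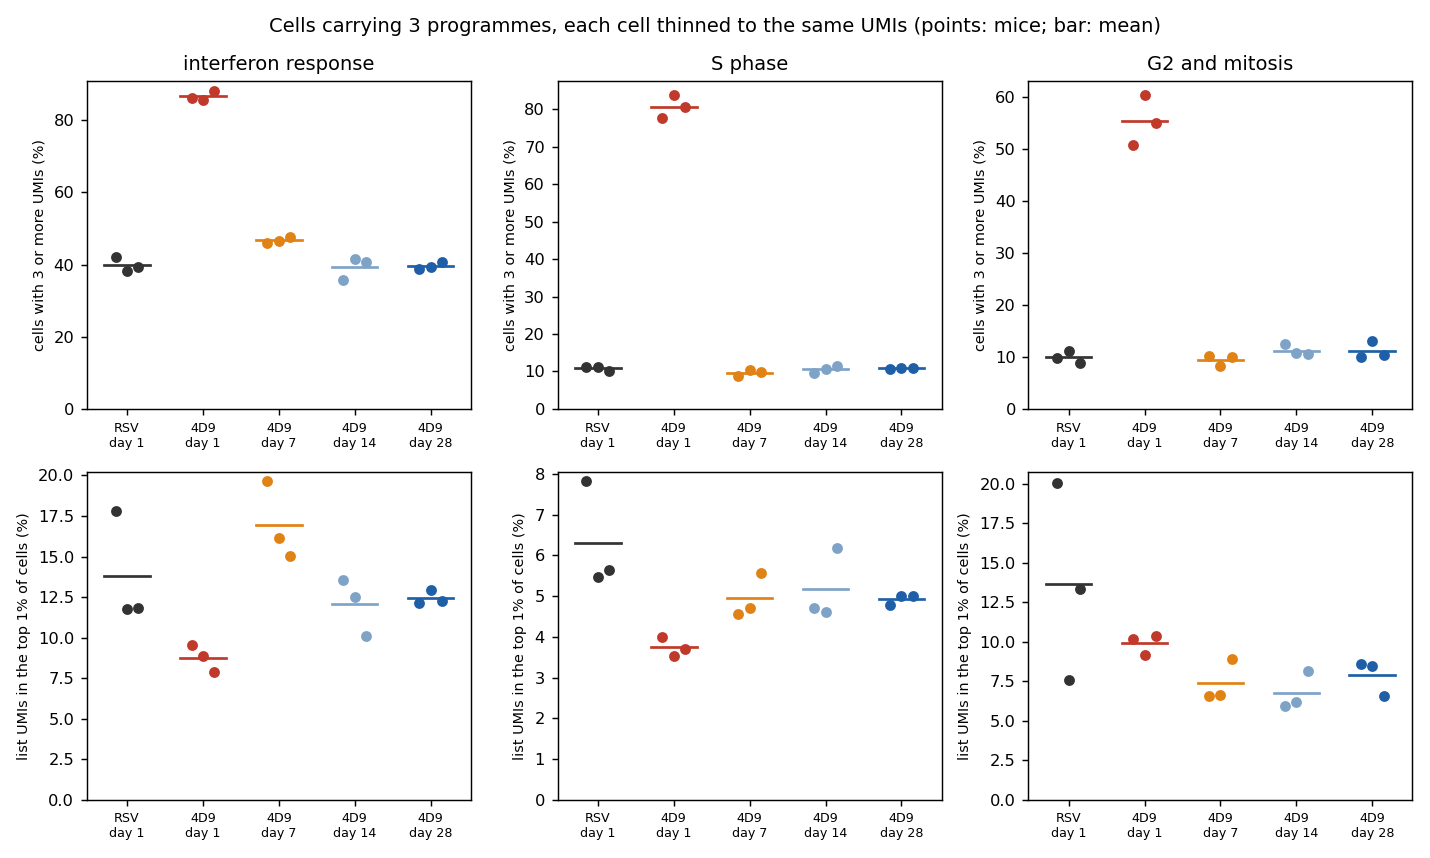
Top row, the percent of cells of each mouse with at least 3 UMIs of the interferon, S phase and G2 and mitosis lists after thinning to 3385 UMIs; bottom row, the percent of the list's UMIs held by the 1% of cells with most of them (points, mice; bars, group means). The day 28 and ATV:RSV mice overlap in the top row (39.5% and 39.9% for interferon), and ATV:RSV replicate 1 is the highest control in the bottom row at 17.8% for interferon and 20% for G2 and mitosis.

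Genes of oxidative phosphorylation and glycolysis, whose list medians had been well above the control level at day 1, lay close to it and were measured tightly. Of 80 nuclear genes of oxidative phosphorylation 0 were called at day 28, 0 had an unadjusted p under 0.05 (6.49% of all genes did), 79 were placed within 1.5-fold and the median was 0.02, where edgeR and DESeq2 also called 0. The median was 1.00, 0.07 and 0.05 at day 1, 7 and 14 and 78 members were called at day 1, when 72.1% of all genes were. Atp5a1, a subunit of ATP synthase, had 209, 213 and 223 CPM in ATV:RSV and 213, 217 and 225 CPM at day 28 (0.02, SE 0.0351). The 13 mitochondrially encoded genes were all placed within 1.5-fold, with 11 above 0 and a median of 0.08.

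Of 22 glycolysis genes 21 were placed within 1.5-fold, limma-voom, edgeR and DESeq2 called 0, 4 had an unadjusted p under 0.05, 17 lay above 0 and the median was 0.03, after 0.87 at day 1. Pkm, pyruvate kinase, had 159.6, 162 and 174 CPM in ATV:RSV and 169.9, 157 and 175 CPM at day 28 (0.02, SE 0.0419, after 2.23 at day 1). Ldha, lactate dehydrogenase A, lay at 0.04 (SE 0.0612, after 1.92). The groups overlapped for both. The regulator of glycolysis Pfkfb3 was the highest member, at 55.9, 67.5 and 65.1 CPM in ATV:RSV and 70.7, 81.0 and 76.0 CPM at day 28 (0.27, limma-voom adjusted p = 0.491).

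The lists of cholesterol biosynthesis and fatty acid oxidation had medians of -0.01 and -0.00, with 21 of 24 and 23 of 24 members placed within 1.5-fold. Hmgcs1, which makes HMG-CoA for sterol synthesis, had 19.1, 19.3 and 19.5 CPM in ATV:RSV and 20.1, 18.2 and 17.6 CPM at day 28 (-0.05, SE 0.0600). Of 38 genes of lysosomes and cathepsins all 38 were placed within 1.5-fold, with 31 above 0 and a median of 0.04. The protease cathepsin D gene, Ctsd, lay at -0.01 (SE 0.0371). The ATF4 and serine synthesis list had a median of 0.04 with 19 of 26 within 1.5-fold, and the heat shock list -0.08 with 25 of 30, where the ATF4 list had been 1.27 at day 1. In these 5 lists limma-voom, edgeR and DESeq2 called 0 genes, and 1, 2, 4, 2 and 1 members had an unadjusted p under 0.05.

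Immediate early genes, which respond within minutes to stimulation and to tissue dissociation, had 23 of 29 members above 0 and a median of 0.09, with 0.13, 0.04 and 0.20 in the 3 batches. Over all mice limma-voom, edgeR and DESeq2 called 0, 7 had an unadjusted p under 0.05 (6.49% of all genes did), and 25 were placed within 1.5-fold. In 7 members the groups did not overlap (8.93% of all genes), and 11 (37.9%) were higher in all 3 batches, where 16.1% of all genes were. The highest member, the phosphatase gene Dusp2, lay at 0.47 (SE 0.260, limma-voom adjusted p = 0.816, or 0.0364 in the fit of the 6 mice alone, where it was called) and at 0.22 without ATV:RSV replicate 3. Fos had 3628, 3499.7 and 3318 CPM in ATV:RSV and 3811, 3814 and 3612 CPM at day 28 (0.11, SE 0.0622), with the highest ATV:RSV mouse just inside the day 28 range. Jun had 5199, 5756 and 5034 CPM and 5315, 5405 and 5778 CPM (0.05, SE 0.0482), with the groups interleaved.

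Chemokine and cytokine genes varied widely between mice. Of 29 members 0 were called, 4 had an unadjusted p under 0.05, and 16 were placed within 1.5-fold, with a median of 0.08 after 1.67 at day 1. Leaving out ATV:RSV replicate 1 raised this median to 0.17, and leaving out ATV:RSV replicate 3 turned it to -0.01. Their sum was 4971, 4811 and 4401 CPM in ATV:RSV and 5754, 5041 and 5226 CPM at day 28, without overlap, as for the sum over all genes tested. The cytokine Il1b had 119, 85.9 and 66.0 CPM in ATV:RSV and 213, 92.2 and 116 CPM at day 28 (0.59, SE 0.308). Day 28 replicate 1 was the highest of the 6 mice, and the value was 0.16 without it and 0.31 without ATV:RSV replicate 3. Csf1, the ligand of CSF1R, was singled out after its values were seen. It had 38.7, 37.8 and 36.8 CPM in ATV:RSV and 52.1, 47.5 and 45.9 CPM at day 28 (0.36, SE 0.10, limma-voom adjusted p = 0.512), without overlap. The monocyte attractant Ccl12 lay lower, at 216, 164 and 179.5 CPM in ATV:RSV and 111, 138 and 168 CPM at day 28 (-0.43, SE 0.140, limma-voom adjusted p = 0.602, and -0.25 without ATV:RSV replicate 1), after 4.96 at day 1.

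**Figure D5:**
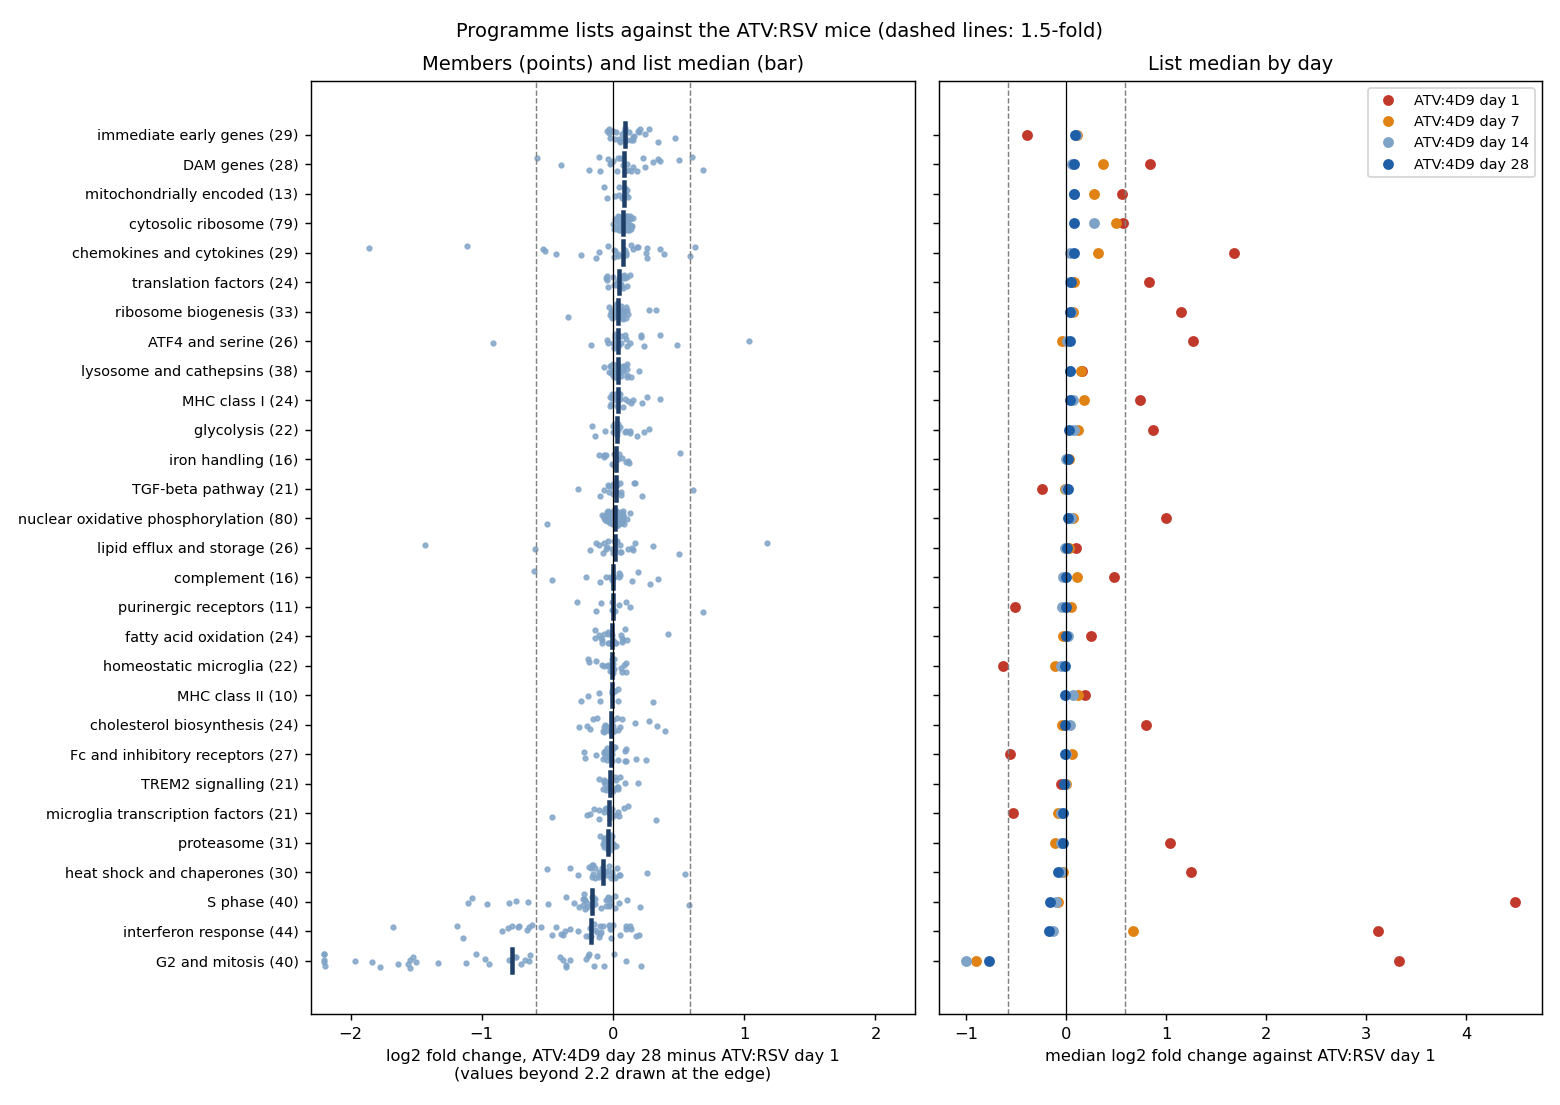
Left, for each programme list (number of genes tested in brackets) the log2 fold change of every member between ATV:4D9 day 28 and ATV:RSV (points, with values beyond the axis drawn at its edge; bar at the median; dashed lines at 1.5-fold). Right, the median of each list against ATV:RSV at day 1, 7, 14 and 28; at day 28 the list medians lie between -0.17 and 0.09 except G2 and mitosis at -0.77.

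Transcripts of other cell types were few. Of the 12 marker lists of other cell types, the astrocyte list was the most frequent, with UMIs of 3 or more markers in 1.45% to 2.71% of the cells of each of the 6 mice, followed by the oligodendrocyte list with 1.13% to 1.73%. No cell of the 6 mice held 3 markers of the T and NK cell or dendritic cell lists. No gene of these lists was called at day 28. Erythrocyte genes summed to 371, 10.4 and 204 CPM in ATV:RSV and 127, 2.96 and 1.47 CPM at day 28, and the ependymal and choroid plexus list to 22.9, 0.724 and 233 CPM and 208, 0.336 and 0.408 CPM. Both varied widely between mice of the same group. Endothelial and mural genes had 9 of 11 tested members below 0, a median of -0.43 and 4 members at an unadjusted p under 0.05 (6.49% of all genes). Their sums were 31.8, 24.3 and 23.4 CPM in ATV:RSV and 23.5, 20.9 and 20.4 CPM at day 28, and the groups overlapped. Border macrophage genes summed to 23.1, 18.0 and 18.5 CPM and 18.1, 15.3 and 16.3 CPM. Leaving out the cells with 3 such markers raised the number of calls at day 28 from 2 to 5.

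Day 28 was also set against the earlier days of ATV:4D9 in contrasts that leave the control group out. Against day 1, 10353 genes (72.6%) differed. Against day 7, 488 genes (3.42%) differed, 384 lower and 104 higher at day 28. Among the lower genes, Cst7 had a log2 fold change of -1.17 (limma-voom adjusted p = 3.35e-06), Axl of -1.06 (adjusted p = 0.00275) and Clec7a of -0.55 (adjusted p = 0.0176). P2ry12 was higher by 0.21 (limma-voom adjusted p = 0.0161), and so was the nuclear RNA Malat1 by 0.38 (adjusted p = 4.9e-05). Of the ribosomal protein genes 76 of 79 were lower. The number of calls was 304 without the batch as a block, 263 without day 28 replicate 3, 273 without day 28 replicate 2, 315 without day 7 replicate 1 and 310 without day 7 replicate 3.

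Against day 14, 19 genes (0.133%) differed. All were lower at day 28 and all 19 encode ribosomal proteins, among them Rps24 at -0.24 (limma-voom adjusted p = 0.0157), Fau at -0.25 (adjusted p = 0.0157), and Rpl23 at -0.23 (adjusted p = 0.0238). edgeR called 5 genes, all of them ribosomal, and DESeq2 called 96, of which 72 were ribosomal, all lower. With limma-voom 0 genes were called without the batch as a block or without any one of the 6 mice compared, and 548 had an unadjusted p under 0.05.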

How the data were processed

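The authors deposited UMI counts per gene and cell for 102043 filtered cells of 15 mice, with the count of UMIs and of genes and the percent of mitochondrial UMIs of each cell. Per the submitters' processing notes the reads were processed with Cell Ranger 4.0.0 on mm10, although the study's methods name other versions. The deposited cells held 667 to 24995 UMIs, at least 500 genes and at most 10.0% mitochondrial UMIs. No cell was left out and no doublet caller was run. An alternative dropped, per mouse, the 5% of cells richest in UMIs.

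Counts were summed per mouse. The filterByExpr function chose the genes tested (minimum count 10, total 15), which were scaled with TMM in edgeR 4.0.16 and fitted with limma-voom (limma 3.58.1, R 4.3.3) over all 15 mice of 5 groups, with the batch as a block. The contrast was ATV:4D9 day 28 minus ATV:RSV, with Benjamini-Hochberg adjustment over 14260 genes and a threshold of 0.05. Whether a gene lay within 1.5-fold was tested with 2 one-sided moderated tests from the same fit, adjusted in the same way. Log2 fold changes are on the voom scale and CPM values use the TMM-scaled library total. The edgeR quasi-likelihood test, DESeq2 1.42.0, other scalings, filters and cell sets and leaving out each mouse were run as alternatives. Cells and exact permutation tests were handled in Python 3.11.15 (NumPy 2.4.6, pandas 2.3.3, SciPy 1.17.1), and every fit was tested on simulated data.

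The batch numbers pair mice because the labels put 1 mouse of each group in each batch. Deviations from group means correlated with a mean r of 0.0334 over 30 same-batch pairs and -0.0164 over 60 other pairs. The members, gene lists and response sets were chosen with earlier results of these data known. Named genes were those called, the 5 highest and 5 lowest without overlap at an unadjusted p under 0.05, the ends of each list, the ends of each response set, the 3 highest and 3 lowest at 100 CPM or more, the smallest p-values against day 7 and day 14, each with at least 10 UMIs in every mouse where ranked, and a set list of markers. Other genes, such as Cdkn2c, Dab2, Lag3, Csf1 and the G2 genes placed within 1.5-fold, were named after their values were seen. Gene positions are from GENCODE for mm10.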

Additional observations from a re-analysis of the deposited data

Results flagged for a closer look

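Genes were called between ATV:4D9 day 28 and the earlier days in 2 direct contrasts without the control group, taken from the fit over all mice. Against day 14, 19 genes differed (0.133% of all genes), all lower at day 28 and all encoding ribosomal proteins. Against day 7, 488 genes differed (3.42% of all genes), among them 76 of 79 ribosomal protein genes, 27 of 44 interferon response genes, 12 of 24 MHC class I genes and 10 of 28 DAM genes. The effects at day 7 and day 28 against ATV:RSV thus differ for these genes, while the 19 genes of the day 14 contrast were not called once any 1 of the 6 mice was left out.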

How the results depend on the processing

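With 3 mice per group the number of calls at day 28 moved with the method. The 2 calls, both higher, became 0 with no replicate block, 0 without a filter on low counts, 0 without any one mouse and 1 with DESeq2 size factors in voom. They became 6 (4 higher, 2 lower) when only the 6 mice were fitted, 6 (5 higher, 1 lower) without the 5% of cells with most UMIs, 17 (14 higher, 3 lower) with DESeq2, and 5 (2 lower) with at least 50 UMIs in every mouse, with sample quality weights or without cells holding 3 markers of another type. Library size alone and thinned counts each gave 1 lower call. With a bound of 5 to 4 in place of 1.5-fold, 8692 genes were placed within it. Against day 14 the 19 calls became 0 with no replicate block, 6 with library size alone, 44 with no filter, 5 with edgeR, 96 with DESeq2 and 0 without any one mouse. Against day 7 the 488 became 304 with no replicate block, 843 with library size alone and 263 to 382 without one mouse. The block, which pairs the mice of a batch, moved no list median beyond its spread.

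Of 826 alternative medians of lists and response sets 787 stayed within the spread between mice and 39 moved. A list that varied widely between mice could change sign and still count as having stayed. This was so for the interferon list and the chemokine and cytokine list (SD between mice 0.312 and 0.0972), whose values without 1 ATV:RSV mouse are given above. With library size alone the median became 0.053 for the day 7 response, 0.019 for ribosome biogenesis, 0.029 for translation factors, -0.018 for purinergic receptors, -0.00053 for TGF-beta (0.0026 with no filter) and -0.018 over all genes (-0.0036 with only the 6 mice). For S phase it was -0.072 with at least 50 UMIs and -0.065 without the cells with most UMIs, and for G2 and mitosis -0.18 with at least 50 UMIs. Leaving out one mouse gave -0.085 to -0.051 for genes lower at day 7, -0.22 to -0.039 for S phase, -1.19 to -0.28 for G2 and mitosis, -0.084 to 0.026 for cholesterol biosynthesis, -0.029 to 0.038 for lipid efflux, 0.029 to 0.075 for ribosome biogenesis, 0.046 to 0.060 for translation factors, -0.013 to 0.034 for purinergic receptors, 0.0028 to 0.038 for TGF-beta and -0.0023 to 0.0038 over all genes. Without thinning the share of cells was 3.81, 3.42 and 3.90 percentage points higher at day 28 for interferon, S phase and G2. With thinning and a minimum of 5 UMIs it was 0.755 percentage points higher for immediate early genes. Of 2182 values of named genes 2058 stayed, 91 moved, 18 lost and 15 gained a call, and none that had been called changed sign. The causes were not tested.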

Other observations

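Iron handling, of interest because the vehicle binds the transferrin receptor, had 15 of 16 genes placed within 1.5-fold, 11 above 0, 0 called by limma-voom, edgeR or DESeq2, 3 at an unadjusted p under 0.05 and a median log2 fold change of 0.02. Its sum was 8159.8, 8564 and 8589 CPM in ATV:RSV and 8958, 8674 and 8891 CPM at day 28, without overlap, as for the sum over all genes tested. Its highest member was Steap3, a ferrireductase of endosomes, with 0.695, 0.820 and 0.954 CPM in ATV:RSV and 1.44, 0.965 and 1.12 CPM at day 28 (0.51, SE 0.216, limma-voom adjusted p = 0.735), or 0.32 without day 28 replicate 1. The lowest was the iron exporter gene Slc40a1 at -0.11 (SE 0.0504). Fc and inhibitory receptors had all 27 genes within 1.5-fold and a median of -0.02, from -0.22 for Siglecg to 0.25 for Lilra5. Complement genes had 10 of 16 within 1.5-fold, a smaller share than the 77.7% of all genes, and a median of 0.00. This share varied with the level of the gene, and the group means of C3, Cfb and C4b in the complement list lay from 0.202 to 1.07 CPM. Purinergic receptors had 9 of 11 within 1.5-fold and a median of 0.00, and the TGF-beta pathway 18 of 21 and a median of 0.02. In these 4 lists 0 genes were called by the 3 tools, and 3, 1, 0 and 1 members had an unadjusted p under 0.05.

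The most extreme log2 fold changes at any p belonged to genes with few or no UMIs in at least 1 of the 6 mice. Among them were -3.81 for Slc4a1, -3.65 for Hbb-bt and -2.97 for Hba-a1, all expressed in erythrocytes, -3.90 for Mxd3, 3.98 for Gm36888 and 2.80 for Slc15a2, a peptide transporter. The limma-voom adjusted p of each of these genes was above 0.05 over all cells, and that of Mxd3 was 0.0352 without cells holding 3 markers of another type.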
